A study of Mus musculus with 2 samples.

Results

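Ribosomes are assembled in the nucleolus, where RNA polymerase I transcribes the ribosomal RNA precursor, small nucleolar ribonucleoproteins (snoRNPs) modify it, and a long series of assembly factors cuts and folds it into the small and the large subunit. T cells that leave the resting state enlarge their nucleoli, and MYC is a known activator of many of these genes. The genes described here are 41 ribosome biogenesis and nucleolar genes, taken as a fixed list of symbols and measured at every probe that the platform annotation pairs with them. The array held 52 such probes of 25697, for 35 of the 41 genes (and of the 16593 named genes with a probe). No listed probe was paired with Polr1b, Noc2l, Utp18, Utp20, Wdr43 or Ddx10, and these genes were not analysed here.

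Regulatory T cells were sorted from mouse spleen as CD4+ CD25+ GITR+ cells, and their total RNA was hybridised to Illumina bead arrays. The knockout sample came from Bach2 KO mice, male by label and 7 weeks old, and the wild-type sample from male C57BL/6 WT mice, 6 weeks old. The knockout is also labelled C57BL/6, and Bach2 encodes a bZIP repressor that holds lymphocytes in a less differentiated state. The labels gave neither the allele nor the number of animals behind each sample. There was 1 array per genotype, so the differences below come without replicate errors or tests and are a description of 2 samples.

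The samples carried differences besides the label. Xist, the RNA of the inactive X chromosome, was seen on the knockout array only, where it was higher by a factor of at least 7.27. The Y-linked genes Kdm5d and Eif2s3y were 6.37-fold and 3.60-fold lower in the knockout, although both samples are labelled male. Both were still detected there, at intensities of 120 and 983, so the knockout sample held Xist and Y-linked RNA together. Uty, also Y-linked, was detected in wild type only and was at least 2.05-fold lower in the knockout. Dkc1 was the only X-linked gene of the 41 and was not detected on either array. Genotype, age, the sex-linked pattern and the array itself cannot be told apart. No probe was paired with Bach2, so the deletion had no check here. All 8 markers of the sorted cells were detected and lay within 1.5-fold, with Foxp3 at a log2 difference of -0.10 and Il2ra (CD25) at -0.02. All log2 differences are knockout minus wild type, of intensities that were background-corrected, quantile normalized and log2-transformed.

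Promoters of the genes are shown first, because several share a short motif around the start site. RefSeq's GRCm38.p6 table held 40 promoters for 37 of the 41 genes, each with 250 bases before and 50 after the start. Motifs were searched on both strands. The ETS factor core CCGGAAG was present in 14 of the 40 (35%), against 8.86% of all 32851 promoters in the table. The E-box CACGTG, which MYC binds, was present in 6 of the 40 (15%), against 7.15% of all. The core TGANTCA, which Bach2 and AP-1 factors bind, was present in 0 of the 40, against 7.81% of all, which says only that these letters are not in these windows. All promoters include those of non-coding genes, so the shares are a description. The 5 promoters below are those of the gene with the largest difference upwards (Nhp2), of its partner Gar1, of the gene that was not detected in the knockout (Nolc1), and of both measured genes that hold an ETS core and an E-box (Nop2 and Tsr1). Each is written 5′ to 3′ in the direction of transcription, with the motifs in capitals; CTTCCGG is the ETS core on the opposite strand.
Nhp2, chr11:51619523-51619822, plus strand: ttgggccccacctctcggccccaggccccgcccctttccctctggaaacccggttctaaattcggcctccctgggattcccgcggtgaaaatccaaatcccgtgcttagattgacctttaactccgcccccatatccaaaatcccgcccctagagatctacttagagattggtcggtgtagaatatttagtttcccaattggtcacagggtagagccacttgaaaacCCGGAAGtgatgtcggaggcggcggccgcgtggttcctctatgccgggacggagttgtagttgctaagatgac
Gar1, chr3:129831347-129831646, minus strand: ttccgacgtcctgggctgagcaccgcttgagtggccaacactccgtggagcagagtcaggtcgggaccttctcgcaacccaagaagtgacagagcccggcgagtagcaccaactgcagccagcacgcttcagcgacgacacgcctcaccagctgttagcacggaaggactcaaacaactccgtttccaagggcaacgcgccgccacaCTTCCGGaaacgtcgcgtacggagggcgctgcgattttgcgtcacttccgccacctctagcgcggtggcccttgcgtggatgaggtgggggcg
Nolc1, chr19:46075597-46075896, plus strand: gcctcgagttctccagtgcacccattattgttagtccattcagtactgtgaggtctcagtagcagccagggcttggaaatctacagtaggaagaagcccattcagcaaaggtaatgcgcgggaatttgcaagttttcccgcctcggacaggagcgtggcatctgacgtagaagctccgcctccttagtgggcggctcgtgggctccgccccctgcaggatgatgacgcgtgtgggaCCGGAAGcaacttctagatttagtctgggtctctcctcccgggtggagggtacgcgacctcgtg
Nop2, chr6:125131633-125131932, plus strand: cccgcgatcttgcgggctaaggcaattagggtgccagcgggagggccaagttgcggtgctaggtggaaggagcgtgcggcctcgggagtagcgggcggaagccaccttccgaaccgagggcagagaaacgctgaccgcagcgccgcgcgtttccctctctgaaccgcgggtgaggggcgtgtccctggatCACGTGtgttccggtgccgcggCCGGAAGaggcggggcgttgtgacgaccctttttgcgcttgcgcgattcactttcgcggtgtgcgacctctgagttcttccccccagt
Tsr1, chr11:74897830-74898129, plus strand: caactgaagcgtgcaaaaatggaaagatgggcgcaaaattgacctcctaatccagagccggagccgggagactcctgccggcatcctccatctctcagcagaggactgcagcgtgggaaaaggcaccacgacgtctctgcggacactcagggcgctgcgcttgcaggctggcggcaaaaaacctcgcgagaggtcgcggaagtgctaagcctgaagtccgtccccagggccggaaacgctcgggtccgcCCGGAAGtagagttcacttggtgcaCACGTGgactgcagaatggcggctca

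Most ribosome biogenesis genes were at nearly the same level on both arrays, with a small median difference towards the knockout that reference genes shared. Probes counted as detected where the detection p-value lay under 0.01, and each gene was read at its brightest detected probe. Of the 35 genes with a probe, 31 were compared: 30 were detected on both arrays and Nolc1 on the wild-type array only. Bysl, Nop16, Wdr12 and Dkc1 were not detected on either array, with 1 probe each. Of the 31, 1 passed 1.5-fold upwards in the knockout and none downwards, where 8.15% of all 7611 genes compared were that much higher and 6.77% that much lower. No gene of the 31 reached 2-fold, against 3.27% of all genes higher and 1.55% lower. Among 31 genes such small counts do not set the list apart from all genes, which were not matched to it for level. With median scaling in place of quantile normalization, 9.78% of all genes were 1.5-fold higher and 4.9% lower.

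The median difference of the 31 genes was 0.13 (1.10-fold), beside -0.03 for all genes compared. It was 0.12 for reference genes, 0.11 for subunits of RNA polymerases II and III and 0.15 for translation initiation genes. Other ribosome biogenesis genes had 0.06 and cytosolic ribosomal proteins -0.09, so a small positive median was not particular to the 31. Their interquartile range ran from -0.06 to 0.23, against -0.26 to 0.22 for all genes. Of the 31, 20 were higher and 11 lower in the knockout (64.5% higher, against 46.7% of all genes). The only scatter available is the SD of the difference between probes of the same gene (the probe SD), 0.228 on the log2 scale over 1734 genes. It measures how far probes disagree and holds no variation between animals, sorts or arrays. For probes of the listed genes alone it was 0.46. The difference of 21 of the 31 genes (67.7%) was smaller than 0.228, as was that of 47.5% of all genes. In a sorted population read as bulk RNA, fewer cells of a type and less RNA per cell cannot be told apart.

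**Figure D1:**
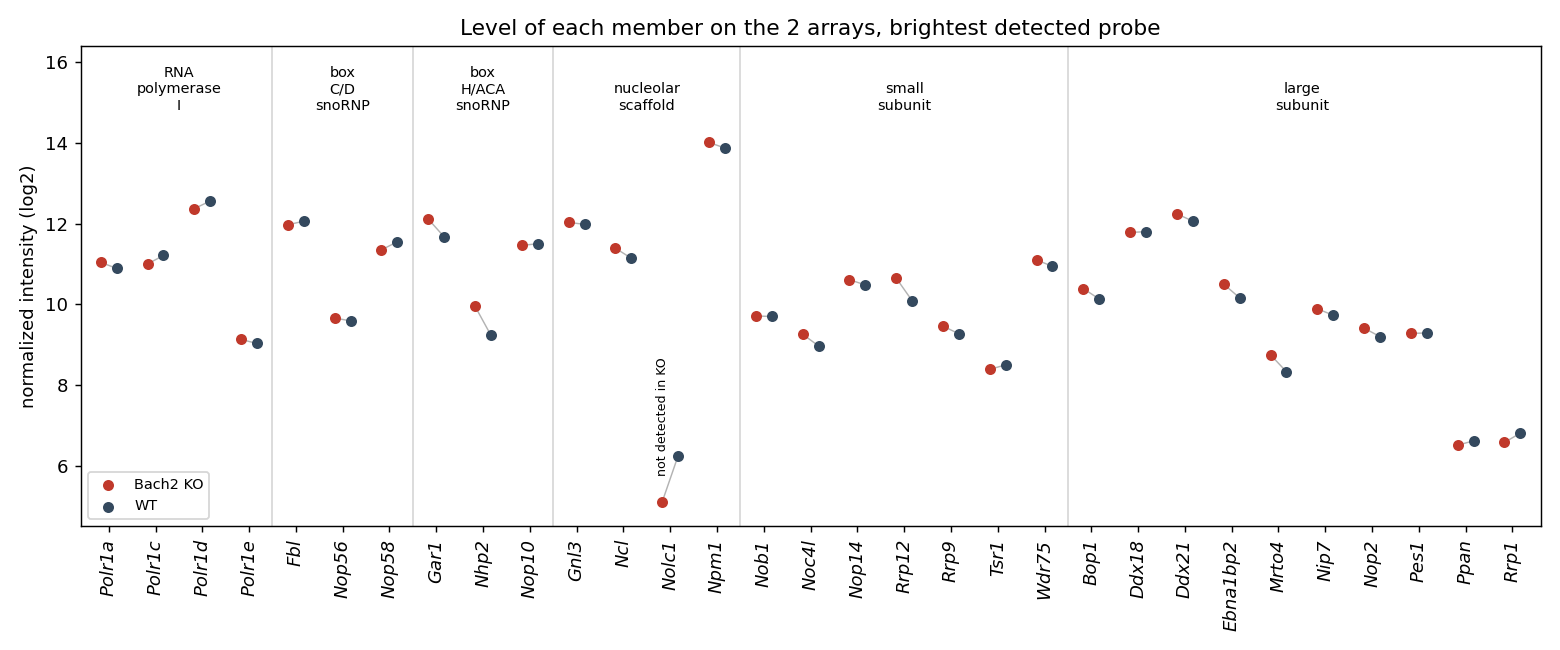
Normalized intensity (log2) of each of the 31 compared genes at its brightest detected probe, with Bach2 KO left of WT (1 array each), grouped by role. The points of a pair lie close together for most genes; Nhp2 and Rrp12 are the most separated upwards, and Nolc1 was not detected in the knockout. Levels of different genes come from different probes and are not comparable.

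RNA polymerase I genes did not move in 1 direction. Polr1a, the largest catalytic subunit, had a log2 level of 11.04 in the knockout and 10.89 in wild type at its brightest probe, a difference of 0.15. Its dimmer probes gave -0.89 (8.30 in the knockout against 9.19 in wild type) and 0.45 (6.85 for the knockout array and 6.40 for the wild-type array), so the 3 probes gave no single direction. Polr1c, a subunit shared with RNA polymerase III, had a deposited intensity of 2061 in the knockout and 2340 in wild type, a log2 difference of -0.21. Polr1d, also shared with RNA polymerase III, had a log2 level of 12.37 in the knockout and 12.56 in wild type at its brightest probe (-0.19), and its dimmer probes differed by 0.08 and 0.99. Polr1e, a subunit of RNA polymerase I, had a log2 level of 9.13 in the knockout and 9.03 in wild type. The brightest probes of all 4 differed by less than the probe SD. Of the rest of the polymerase I machinery, 3 of 11 genes were detected: Ubtf, the factor that opens ribosomal DNA for transcription, differed by 0.19, Taf1d, a subunit of the promoter selectivity factor, by 0.37, and Baz2a, a subunit of the complex that silences ribosomal DNA, by -0.59 (just past 1.5-fold lower). Subunits of RNA polymerases II and III, as a comparison, had a median of 0.11 over 14 detected genes. None of the 14 reached 1.5-fold, beside 8.15% of all genes compared that were higher and 6.77% that were lower.

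Box C/D snoRNP genes, whose products carry out ribose methylation of ribosomal RNA, were level between the samples. Fbl (fibrillarin), the methyltransferase, had a log2 level of 11.97 in the knockout and 12.06 in wild type. Nop56, a scaffold protein of the particle, had 9.66 in the knockout and 9.59 in wild type. Nop58, its partner, had 11.35 in the knockout and 11.55 in wild type. The 3 differences, -0.09, 0.07 and -0.19, were all within the probe SD and had a median of -0.09.

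Box H/ACA snoRNP genes, whose products convert uridine to pseudouridine in ribosomal RNA and also bind telomerase RNA, held the largest difference upwards. Nhp2, an RNA-binding core protein of the particle, had a log2 level of 9.95 in the knockout and 9.23 in wild type, a difference of 0.73 (1.65-fold). It was the only gene of the 31 past 1.5-fold, and 92.9% of all genes compared had a lower difference. Only this probe of Nhp2 was detected; the other had detection p-values of 0.0602 in the knockout and 0.0514 in wild type. Gar1, a core protein of the same particle, had 12.11 in the knockout and 11.67 in wild type, a difference of 0.44 (1.35-fold) at its single probe. Nop10, the smallest core protein, had 11.46 in the knockout and 11.50 in wild type (-0.03), and its dim second probe differed by 0.07. The particle's detected genes therefore ranged from -0.03 to 0.73. Dkc1 (dyskerin), the pseudouridine synthase, was not detected (detection p-value 0.741 in the knockout and 0.947 in wild type) and has no fold.

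Genes of abundant nucleolar proteins included the only one detected on 1 array. Npm1 (nucleophosmin), a histone and ribosome chaperone, had a log2 level of 14.01 in the knockout and 13.87 in wild type (0.15). Ncl (nucleolin), which binds nascent ribosomal RNA, had 11.39 in the knockout and 11.14 in wild type, and its 2 probes differed by 0.25 and 0.21. Gnl3 (nucleostemin), a nucleolar GTPase, had 12.03 in the knockout and 11.98 in wild type. Nolc1 (Nopp140), a chaperone of snoRNPs, went the other way: its deposited intensity was 16.5 in the knockout (detection p-value 0.0764) and 60.4 in wild type. Set against the dimmest detected probe of the knockout array (log2 5.81), Nolc1 was at least 1.35-fold lower in the knockout. With a detection p-value under 0.05 as the limit, or with no limit, it passed 1.5-fold lower. This probe was dim on both arrays, and Nolc1 had no other.

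Among genes of small subunit assembly, 6 of 7 detected were higher in the knockout, none past 1.5-fold, with a median of 0.16. Nob1 counted among the 6 with a difference of 0.00, and 5 of the 7 differed by less than the probe SD. Of all genes compared, 46.7% were higher in the knockout, and 8.15% were past 1.5-fold higher and 6.77% lower. Rrp12, known in yeast for the export of precursor subunits, had a log2 level of 10.65 in the knockout and 10.09 in wild type, a difference of 0.56 (1.47-fold), just under the threshold. It passed 1.5-fold with median scaling (0.66) and with cyclic loess (0.60). Noc4l, a component of the small subunit processome, had 9.26 in the knockout and 8.97 in wild type, and its probes differed by 0.29 and 0.52. Rrp9, which binds the small nucleolar RNA of early cleavage, had 9.46 in the knockout and 9.27 in wild type. Wdr75, which links transcription of ribosomal DNA to processing, had 11.10 in the knockout and 10.94 in wild type, and its 2 probes gave the same difference of 0.16. Nop14, a processome component, differed by 0.13. Nob1, the endonuclease of the final cut, had 9.71 in the knockout and 9.70 in wild type, and Tsr1, a late assembly factor, had 8.39 in the knockout and 8.50 in wild type.

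Genes of large subunit assembly had a median of 0.17, with 6 of 10 detected genes higher in the knockout and none past 1.5-fold. Of all genes compared, 46.7% were higher in the knockout, and 8.15% were past 1.5-fold higher and 6.77% lower. With 10 genes, none past 1.5-fold is near those shares. Mrto4, a factor related to the ribosomal stalk protein, had a log2 level of 8.75 in the knockout and 8.33 in wild type (0.43, 1.34-fold). Ebna1bp2, a nucleolar assembly factor, had 10.50 in the knockout and 10.16 in wild type at its brightest probe (0.34). Its dimmer probes went the other way, at -0.55 and -0.75, and the mean over its detected probes was -0.32. Of the PeBoW complex, which processes the precursor of the large subunit's RNA, Bop1 had 10.39 in the knockout and 10.13 in wild type (0.26), whereas Pes1 had 9.28 in the knockout and 9.29 in wild type (-0.01) and Wdr12 was not detected. Nop2, a ribosomal RNA methyltransferase, had 9.41 in the knockout and 9.20 in wild type where it was brightest (0.21), and the dimmer probes gave 0.45 and -0.28. Among the others, the DEAD-box helicases Ddx21 and Ddx18 differed by 0.18 and -0.03, and Nip7, a late factor, by 0.16. Ppan and Rrp1, both assembly factors known from yeast relatives and both dim here, differed by -0.11 and -0.23.

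**Figure D2:**
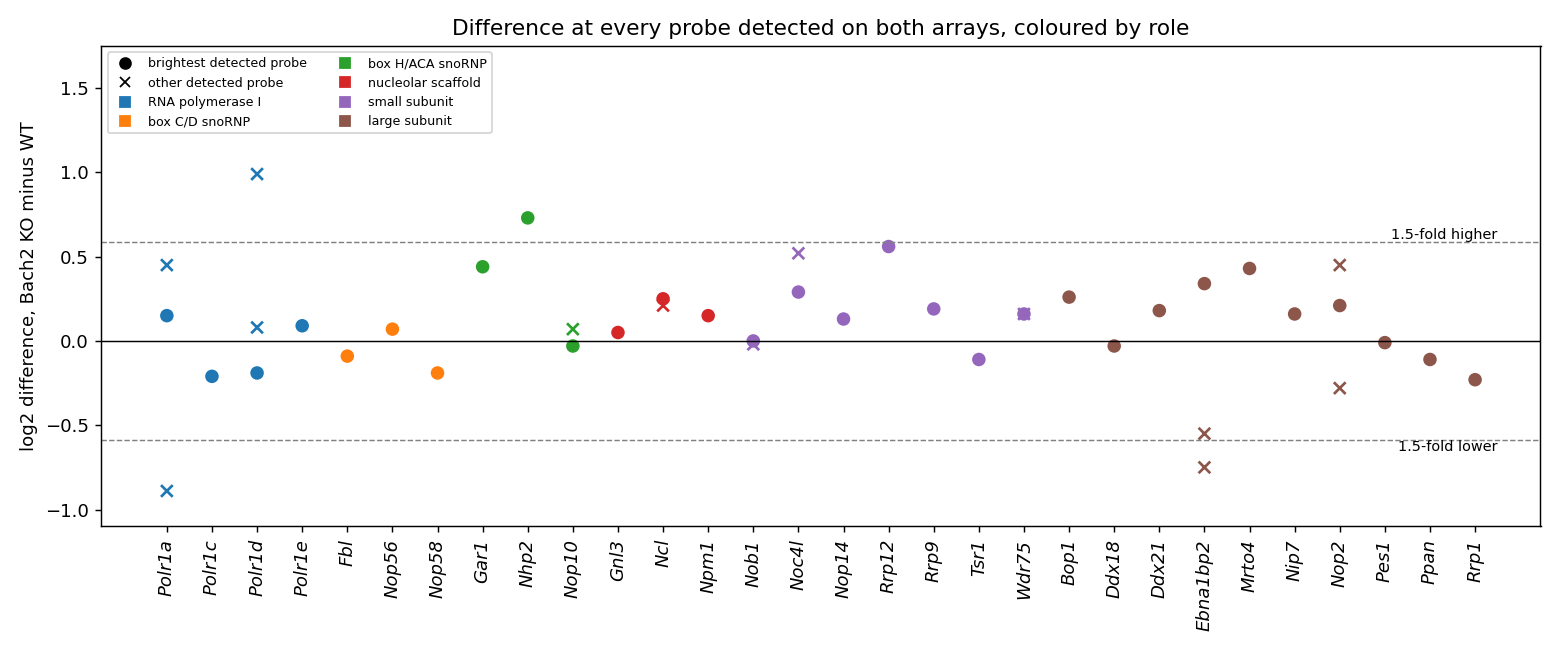
Log2 difference (knockout minus wild type) at each of the 43 probes detected on both arrays, by gene and coloured by role; circles are the brightest detected probe and crosses the others, and dashed lines mark 1.5-fold. Nhp2 is the only circle past a line, and the crosses of Polr1a, Polr1d and Ebna1bp2 lie far from their circles.

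Probes of the same gene often disagreed. Of the 52 probes, both arrays detected 43, only wild type detected 1 and neither detected 8. Past 1.5-fold lay 2 of the 43 upwards (Nhp2 and the dimmest Polr1d probe) and 2 downwards (Polr1a and Ebna1bp2), where 7.32% of all such probes were that much higher and 6.42% that much lower. For 9 genes several probes were detected on both arrays, and in 6 of the 9 the differences had both signs. The SD between probes of these 9 genes was 0.46, against 0.228 over the 1734 genes. At the 19 probes with a mean log2 level of 10 or above, differences ran from -0.21 to 0.56. At the 8 probes below 8, they ran from -0.75 to 0.99.

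**Figure D3:**
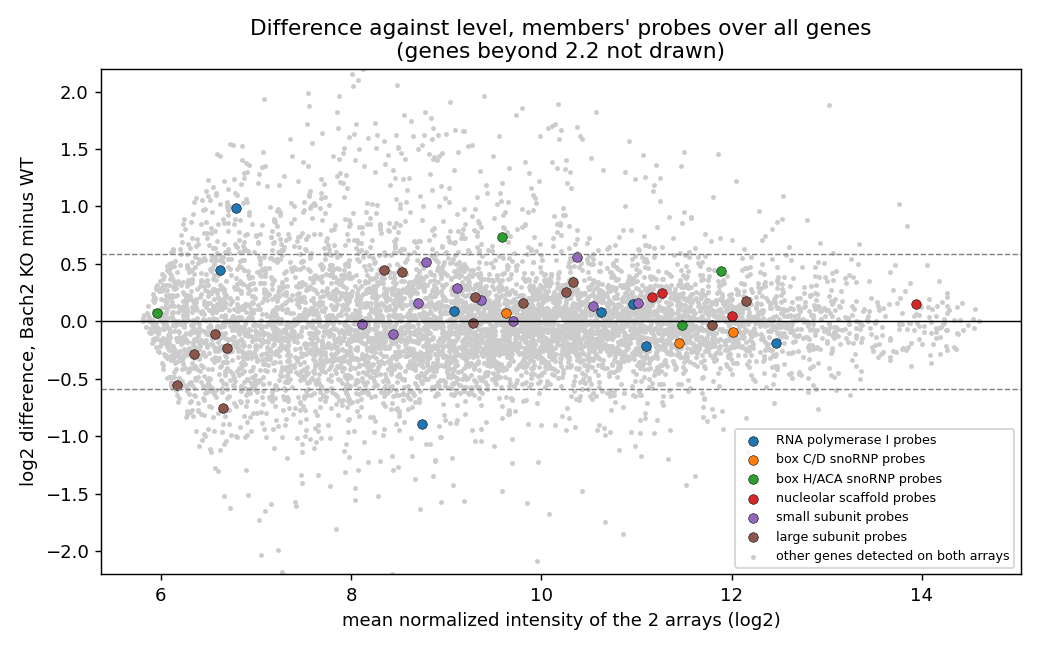
Log2 difference (knockout minus wild type) against the mean log2 intensity of both arrays, for the 43 probes of the ribosome biogenesis genes (coloured by role) over other genes detected on both arrays (grey); dashed lines mark 1.5-fold. The coloured points spread more at the dim end, and at 10 or above none lies past a dashed line.

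The promoter motifs shown above were set beside these differences. The 10 compared genes with an ETS core had a median of 0.13 and ran from -1.13 (Nolc1, at its normalized value, since the bound is -0.43) to 0.73 (Nhp2), and the 17 without one had a median of 0.07 and ran from -0.23 to 0.43. The 3 compared genes with an E-box, Nop2, Pes1 and Tsr1, ran from -0.11 to 0.21, and the 24 without one from -1.13 to 0.73. The genes with an ETS core held both the lowest and the highest value, and only 3 genes held an E-box. These ranges therefore could not show a split of the genes by either motif. Rrp12 (0.56), Bop1, Fbl and Npm1 had no promoter among those searched and are in none of these groups.

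Further genes of the pathway were also close to level. Of 93 other ribosome biogenesis genes, 73 could be compared, and their median difference was 0.06. Read at the brightest detected probe, none was 1.5-fold higher and 1, Wdr18, was past 1.5-fold lower (-0.62). The highest were Rsl1d1 (0.51), Pwp1 (0.51) and Rrs1 (0.47), and after Wdr18 the lowest were Utp25 (-0.53) and Gnl2 (-0.51). The second Gnl2 probe, almost as bright, differed by 0.03, and the other 3 Utp25 probes by -0.66 to 0.05. Rrp1b differed by 0.10 at its brightest probe, but by 0.75 (past 1.5-fold) at a dimmer probe that both arrays detected. Its remaining probe, detected in the knockout only, gave 0.72 at its normalized value. Cytosolic ribosomal proteins, the end products that these factors assemble, had a median of -0.09 over 53 detected genes, and 13 of the 53 were higher in the knockout. Of the 53, 2 were at least 1.5-fold lower at the brightest probe, Rpl21 (-0.72) and Rps15 (-0.64), and none was 1.5-fold higher. The shares of all genes compared were 6.77% lower and 8.15% higher. Rpl38 differed by 0.17 at its brightest probe but by 1.08 at a dimmer probe detected on both arrays. The ribosomal protein median stayed below 0 and that of the 31 biogenesis genes above 0 under all 10 alternative ways of processing. All of these used the same 2 arrays, so they do not show whether the signs would recur in other samples. Many processed copies resemble ribosomal protein genes, so their probes are uncertain.

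Genes of the MYC network differed among themselves. Myc itself was not detected in the knockout (detection p-value 0.0163) and was dim in wild type; the bound of its difference was -0.58, just short of the 1.5-fold threshold. Mxi1, an antagonist of MYC, was 1.95-fold lower in the knockout (log2 level 7.76, against 8.72 in wild type). Mxd3, a relative of Mxi1 expressed in dividing cells, was detected on the knockout array alone, higher by a factor of at least 2.49. Max, the shared partner, differed by -0.20, Mxd4 by -0.16, Mnt by 0.10 and Mlx by 0.26 (-0.36 at its other probe). Mga lay near the detection limit, with p-values of 0.00752 in the knockout and 0.0113 in wild type, and Mycn, Mxd1 and Mlxip were not detected.

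Cell cycle genes had a larger median difference than the ribosome biogenesis genes. Of 28 such genes 23 were detected, and all 23 were higher in the knockout. Past 1.5-fold were 21 of the 23, beside 8.15% of all genes compared. Their median was 1.51 (1.38 with genes detected on 1 array at their bound). This list, like the others, was chosen with earlier results of these data known, so it is a description and no independent contrast. The highest detected on both arrays were Rrm2 (1.91), Top2a (1.72) and Plk1 (1.69). The summed deposited intensity of the detected cell cycle genes was 46329 in the knockout and 22435 in wild type, a ratio of 2.06. For the 31 ribosome biogenesis genes the sum was 71417 in the knockout and 64747 in wild type, and for all genes compared 10930437 in the knockout and 10547395 in wild type. The lowest cell cycle difference was 0.39 (Mcm6 at its brightest probe), above 27 of the 31 ribosome biogenesis genes. The dimmer Mcm6 probes differed by 1.09, 0.81 and 0.36.

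**Figure D4:**
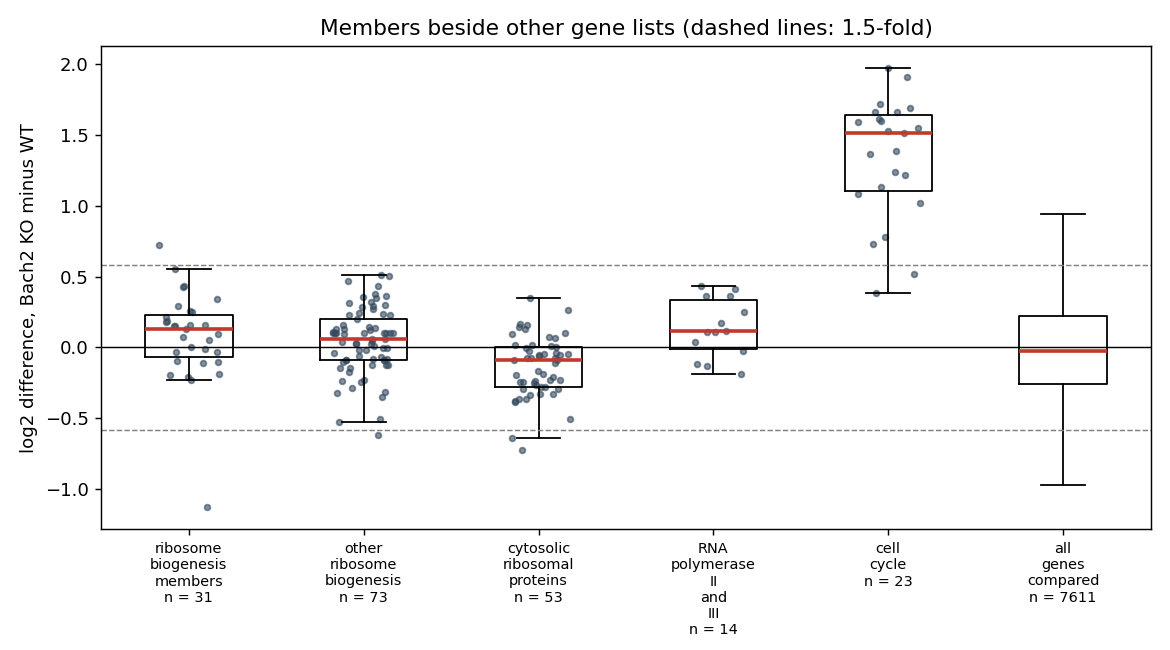
Log2 difference (knockout minus wild type) per gene for the ribosome biogenesis genes and 4 comparison lists, with all genes compared at the right; points are genes, red lines medians, boxes the interquartile range, whiskers reach the last gene within 1.5 times the box, and points are not drawn for all genes. The cell cycle median of 1.51 lies above those of the other lists, and the ribosome biogenesis list straddles 0.

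Markers of other cell types also differed between the samples, and their part in the small median difference of the ribosome biogenesis genes was not tested. Of 9 neutrophil genes 7 were detected, 6 at least 1.5-fold lower in the knockout. Mmp9 went the other way (0.25), with an intensity of 383 in the knockout and 309 in wild type. The detected neutrophil genes summed to 987 in the knockout and 3355 in wild type, and Elane and Ngp were not detected. All 3 detected red cell genes were past 1.5-fold lower in the knockout, among them Hba-a1 (-1.34) and Hbb-bt (-1.19), with a summed intensity of 213 in the knockout and 585 in wild type; Alas2 was not detected. Mast cell and basophil genes were higher, with 5 of 6 detected and a sum of 1173 in the knockout and 373 in wild type, as were NK cell genes (2794 in the knockout against 1026 in wild type, 5 of 7 detected, Ncr1 not detected), most of whose sum was Nkg7. Of 7 B cell genes 3 were detected, with a sum of 1617 in the knockout and 714 in wild type that was mostly Cd79b (1433 in the knockout, 612 in wild type). Cd22 was also higher (1.10), Cd79a was not detected in the knockout and differed by -0.12, and Ms4a1, Pax5 and Blk were not detected on either array. Myeloid genes summed to 1258 in the knockout and 847 in wild type: Fcer1g (0.73) and Tyrobp, detected in the knockout only, were higher, Lyz2 differed by 0.04 and Adgre1 by -0.14, and Itgam was not detected. Plasma cell genes summed to 6312 in the knockout and 4864 in wild type, mostly Xbp1 (0.30), and of the CD8 T cell genes Cd8a was not detected and Cd8b1 differed by 0.20. Reference genes had a median of 0.12 over 6 detected genes, close to the 0.13 of the ribosome biogenesis genes, with Gapdh at 0.43 and Actb at -0.03. Stress genes had a median of 0.00, with Fos at -0.71 and Hsp90aa1 at 0.36.

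**Figure D5:**
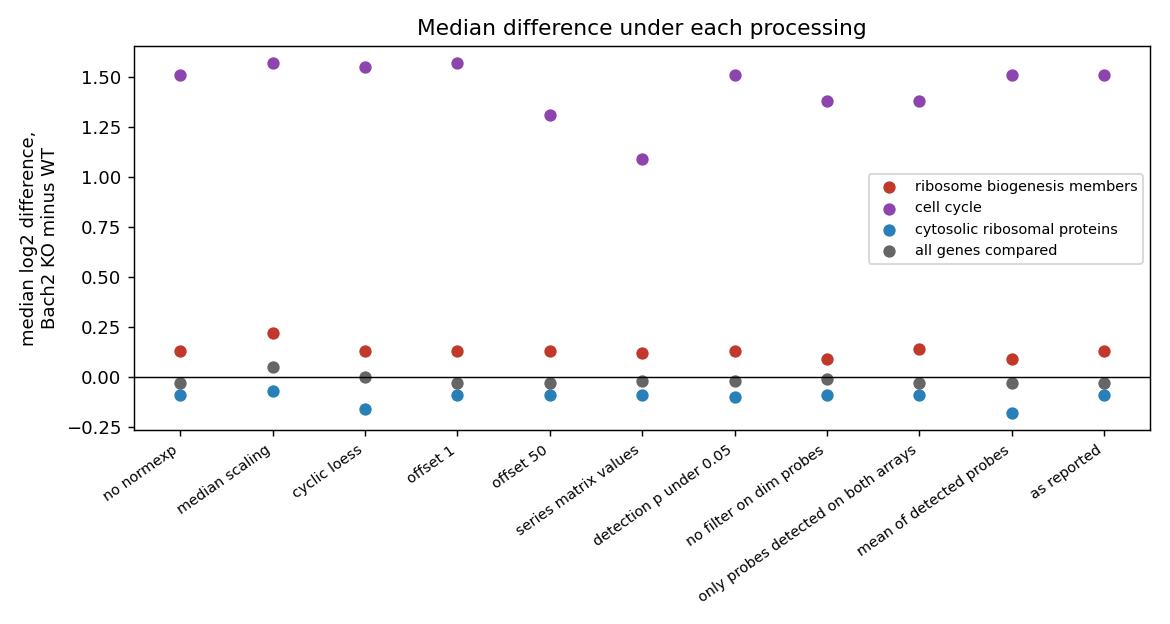
Median log2 difference (knockout minus wild type) of 3 gene lists and of all genes compared, under each of 10 alternative ways of processing and as reported at the right. The ribosome biogenesis median lies between 0.09 and 0.22 throughout, above that of all genes and far below that of cell cycle genes.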

How the data were processed

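RNA of sorted regulatory T cells from 1 Bach2 KO and 1 WT sample was biotin-labelled for Illumina arrays, per the labels' protocols. The authors deposited an intensity and a detection p-value for each probe and array, in a table its header calls non-normalized. The deposited intensities were background-subtracted, since 29.5% of the knockout's and 30.4% of the wild type's were below 0. Scanner software and version were not given in the sources used here. A second deposited table, the series matrix, holds intensity values that were a straight-line function of the first on each array (residuals of at most 0.0091), so it is not independent: its scale is linear, shifted by a constant, and genes are not centred.

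Probes were named through the platform annotation, with symbols updated by gene number: 23978 probes had 1 symbol and 1719 were unnamed. Background was corrected by normexp, with noise estimated through the detection p-values and an offset of 16, and the arrays were quantile normalized and log2-transformed (neqc, limma 3.58.1, R 4.3.3). Of the probes, 10373 were detected in the knockout and 10431 in wild type where the limit was a detection p-value of 0.01. Each gene took its brightest detected probe, ranked by its mean over the arrays. For a gene detected on 1 array, the fold is a lower bound against the higher of its own value and the dimmest detected probe of the other array (log2 5.81 in the knockout, 5.80 in wild type). The offset shrinks differences of dim genes, and quantile normalization hides a general shift of all genes. The main setting was also run on a simulated pair of arrays, with known folds at probes that both real arrays detected. Its pass criterion was the median difference, and not the count past 1.5-fold or the bound for genes detected on 1 array.

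All 41 genes could be named, and from comparison lists the 3 largest differences each way among genes detected on both arrays, or every member of lists of at most 11 genes. The genes and lists were chosen with earlier results of these data known. Protein features had been planned and were not analysed here. Alternatives covered background, normalization, offset, table, detection threshold, filter and probe rule. The number of arrays limits the precision.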

Additional observations from a re-analysis of the deposited data

How the results depend on the processing

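The median difference of the ribosome biogenesis genes kept its sign under all 10 alternatives and ran from 0.09 to 0.22, and it lay 0.11 to 0.17 above the median of all genes compared. The count of genes at least 1.5-fold higher was 1 (Nhp2) as reported and under 8 alternatives, and 2 (Nhp2 and Rrp12) with median scaling and with cyclic loess; the cause was not tested. The count of genes at least 1.5-fold lower was 0 as reported and 1 (Nolc1) both with a detection p-value under 0.05 and without a filter on dim probes; the first lowers the detection limit used in its bound, and the second takes its value in place of the bound. Of the 31 genes, 24 kept the sign of their difference under all alternatives that gave a value. Nhp2 ran from 0.65 to 0.81, Gar1 from 0.43 to 0.53, and Nolc1 from -1.63 to -0.43. The mean over detected probes turned the differences of Ebna1bp2 (-0.32), Polr1a (-0.10) and Polr1d (0.30), whose probes disagree, and Ddx18, Nop10, Pes1 and Nob1 crossed 0, between -0.03 and 0.09. Dim signal limits Nolc1, Ppan and Rrp1 and leaves 4 genes without a value. No paired analysis was possible because each genotype has 1 array, and for the same reason no replicate could be left out.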

Other observations

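Among genes of translation initiation and its control by mTOR, 1 of 12 detected was past 1.5-fold higher, beside 8.15% of all genes compared. It was Eif4e, the cap-binding protein that limits translation initiation. At its only probe Eif4e had a log2 level of 8.07 in the knockout and 7.07 in wild type. Eif4ebp1, its inhibitor, differed by 0.45 and Eif5a by 0.33, while Eif4b (-0.22), Eif4ebp2 (-0.21) and Tsc2 (-0.07) were lowest, and the list's median was 0.15. Of 10 targets of p53, 6 were detected. Cdkn1a, the p21 inhibitor of cyclin-dependent kinases, was at its brightest probe detected in the knockout only, but a second probe, detected on both arrays, differed by 0.20. Gadd45a differed by -0.62. The other detected targets, Mdm2 (-0.07), Ccng1 (-0.20), Trp53inp1 (-0.20) and Sesn2 (detected on 1 array only), lay within 1.5-fold.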
